A study of Caenorhabditis elegans with 6 samples.

Results

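A run of 10 neighbouring genes on chromosome II of Caenorhabditis elegans stood higher in L4 larvae of the ddi-1(icb156) strain than in those of wild type. The 10 genes were chosen by their rise in this very comparison, as an unbroken run among the tested genes between 2320334 and 2350162 of assembly WBcel235, a stretch of 29.8 kb. Their fold changes below are therefore a description and no independent evidence. They are ZK1240.3, ZK1240.2, ZK1240.11, ZK1240.8, ZK1240.1, F43C11.8, F43C11.7, enri-1 (sequence name F43C11.9), F43C11.6 and F43C11.4, in this order along the chromosome, and make up 10 of the 15409 genes that could be tested and of the 19999 genes in the files.

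RNA was taken with TRIzol from whole animals grown to the L4 stage at 20°C on E. coli OP50, from 3 wild-type samples and 3 samples of ddi-1(icb156), each labelled a biological replicate. DDI-1 is the aspartic protease that cleaves and so activates SKN-1A, the transcription factor that raises proteasome subunit genes when the proteasome fails. The comparison asked whether impaired proteasome function induces the genes of the oomycete recognition response. The icb156 allele is a non-synonymous change from a chemical mutagenesis screen. The study lists the allele in a single strain, which also carries the integrated reporter icbIs4, with chil-27p::GFP and col-12p::mCherry, on chromosome II. The position of icbIs4 on that chromosome, and whether the wild-type animals carried it, are not stated in the labels or the methods. The ddi-1 mutation, the reporter and any other mutation of the strain cannot be told apart in these samples. Nor can more RNA per cell and more cells of a kind be told apart in RNA from whole animals.

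The samples held 28962104 to 47142002 estimated counts, with fewer in the mutants (at most 36258118) than in wild type (at least 40554395). Wild-type replicate 2 stood apart from the other wild-type samples, at -17.2 on the first principal component. Replicates 1 and 3 were at -77.4 and -74.9, and the mutants between 50.6 and 62.8. The marker genes held in the files for intestine (5), epidermis (3), body wall muscle (3), pharynx (3), neurons (4) and germline (6) had counts in every sample, so the tissues of whole animals were represented. Yolk protein genes summed to 2754 to 5709 CPM in wild type and 302 to 536 CPM in the mutants, and all 6 were lower. CPM are counts relative to the TMM-scaled size of the library, set to a common total.

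Only enri-1 among the 10 genes carries a symbol other than its sequence name in the annotation. ENRI-1 is known in C. elegans as a partner of the nuclear Argonaute NRDE-3. It holds back nuclear RNAi, the pathway in which an Argonaute loaded with a small RNA enters the nucleus and silences the matching gene as it is transcribed. Roles for the other 9 genes are not annotated in the sources used here, so they are described by position and level. Genes of pathogen responses in C. elegans are often found as groups of neighbours, among them the chitinase-like chil genes and the pals genes.

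The run held 5 genes of the ZK1240 series followed by 5 of the F43C11 series. On the plus strand lay 8 of them, and ZK1240.8 and enri-1 lay on the minus strand. All were annotated as protein-coding, with 4 to 8 exons and lengths of 1029 to 3720 bases from start to end. Neighbours in the run were separated by 40 to 3044 bases. The closest pair was ZK1240.2 (2323376 to 2325215) and ZK1240.11 (2325256 to 2326284), both on the plus strand. The farthest pair was F43C11.6 (2342429 to 2343927) and F43C11.4 (2346972 to 2350162), with the pseudogene F43C11.5, not analysed here, between them. F43C11.4 shared 10 exon bases with F43C11.10 on the other strand, which had 1 count over all samples. The small non-coding RNA gene F43C11.15 lay inside enri-1 without touching its exons.

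In each of the 10 genes the lowest mutant sample was above the highest wild-type sample, against 23.4% of all tested genes. All 10, chosen for their rise, passed the test as higher, against 9.96% of all tested genes. A gene passed at p below 0.01 and an adjusted p below 0.1 in edgeR's quasi-likelihood test. Their median log2 fold change was 1.71, beside 0.01 over all tested genes. Of the 10, 8 had log2 fold changes between 1.5 and 2, and F43C11.8 and F43C11.4 had higher values. ZK1240.8, ZK1240.1 and F43C11.8 had under 10 counts in every wild-type sample. These 3 genes passed the filter on low counts only through the mutants, where they are high. F43C11.4, with 27, 6 and 20 counts in wild-type replicates 1 to 3, also needed mutant samples to pass the filter.

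**Figure D1:**
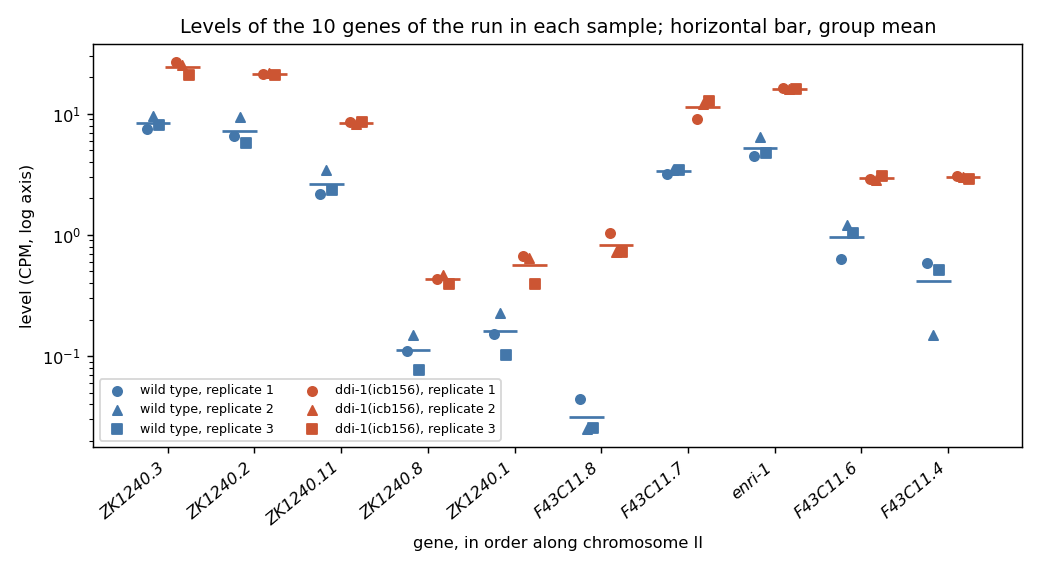
Levels of the 10 genes in CPM (vertical log axis) in each of the 3 wild-type (blue) and 3 ddi-1(icb156) (orange) samples, with genes in order along chromosome II and bars at the group means. In each gene the 3 mutant samples lie above the 3 wild-type samples, and the mutant samples of enri-1, ZK1240.2 and ZK1240.11 lie close together.

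The 4 genes with the highest levels per length were ZK1240.3, ZK1240.2, enri-1 and F43C11.7. ZK1240.3 (2320334 to 2321951) had 7.44, 9.62 and 8.01 CPM in the wild-type samples (replicates 1 to 3) against 26.6, 25.3 and 21.1 CPM in ddi-1(icb156) replicates 1 to 3. Its group means were 8.36 ± 1.13 and 24.3 ± 2.88 CPM (SD, n = 3 each, log2 fold change 1.54 ± 0.14, SE). ZK1240.2 had 6.50, 9.35 and 5.77 CPM in wild type and 21.3, 21.7 and 20.8 CPM in the mutants (log2 fold change 1.56 ± 0.19, SE). In both genes wild-type replicate 2 was the highest of its group and still less than 0.5 times the lowest mutant sample.

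enri-1 (2337896 to 2341615) had 4.44, 6.39 and 4.70 CPM in the wild-type samples (replicates 1 to 3) against 16.35, 16.01 and 16.06 CPM in the mutants. The means were 5.18 ± 1.06 and 16.1 ± 0.181 CPM (SD, n = 3 each, log2 fold change 1.64 ± 0.16, SE). The 3 mutant samples of enri-1 differed by less than the wild-type samples did, with an SD of 1.12% of the mean against 20.4%. This mutant SD is smaller than counting error alone would give at 488, 622 and 529 counts, and the difference in spread was not tested. F43C11.7, which lies 199 bases before enri-1 on the other strand (2335897 to 2337696), had 3.17, 3.46 and 3.43 CPM in wild type and 9.08, 12.0 and 12.7 CPM in the mutants. Here the spread was the other way, 4.68% of the mean in wild type and 17.1% in the mutants (log2 fold change 1.75 ± 0.17, SE).

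ZK1240.11, F43C11.6 and F43C11.4 had intermediate levels. ZK1240.11 had 2.17, 3.43 and 2.34 CPM in the wild-type samples (replicates 1 to 3) against 8.54, 8.24 and 8.59 CPM in the mutants (log2 fold change 1.68 ± 0.20, SE). F43C11.6 had 0.635, 1.20 and 1.04 CPM in wild type and 2.88, 2.86 and 3.04 CPM in the mutants (log2 fold change 1.61 ± 0.26, SE). F43C11.4, the last gene of the run, had 0.591, 0.150 and 0.509 CPM in wild type and 3.08, 2.99 and 2.88 CPM in the mutants. On the log2 scale the change was 2.82 ± 0.42 (SE), and without wild-type replicate 2, which had only 6 counts of the gene, it was 2.43. In the mutants the SD of the 3 samples of F43C11.4 was 3.32% of their mean, and in wild type it was 56.2%. The mutant SD is smaller than counting error alone would give at 92, 116 and 95 counts. The wild-type SD rests on few counts, and the difference in spread was not tested.

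The remaining 3 genes were near the floor of detection in wild type. F43C11.8 (2332520 to 2334338) had 2, 1 and 1 counts in the wild-type samples (replicates 1 to 3) against 31, 28 and 24 counts in the mutants, or 0.0314 ± 0.0107 and 0.829 ± 0.181 CPM (SD, n = 3 each). The log2 fold change, 4.56 ± 0.54 (SE), was the highest of the run, and on log2(TPM + 1), which understates low genes, it was 0.83. ZK1240.8 (2326978 to 2329063) had 5, 6 and 3 counts in wild type and 13, 18 and 13 in the mutants (log2 fold change 1.92 ± 0.38, SE). ZK1240.1 (2329392 to 2331860) had 7, 9 and 4 counts in wild type and 20, 25 and 13 in the mutants (log2 fold change 1.81 ± 0.42, SE). The lowest mutant sample of ZK1240.1 was 1.75 times its highest wild-type sample in CPM, the smallest separation of the 10 genes. The 3 faint genes follow each other in the middle of the run, with more abundant genes on both sides.

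Per length, in TPM (counts divided by effective length and scaled to a common total), the genes kept nearly the same order in both groups. In wild type the mean levels were 7.73 TPM for ZK1240.3, 6.36 for ZK1240.2, 4.33 for enri-1, 3.62 for F43C11.7, 1.57 for F43C11.6, 1.36 for ZK1240.11, 0.702 for F43C11.4, 0.137 for ZK1240.8, 0.129 for ZK1240.1 and 0.0312 for F43C11.8. In the mutants ZK1240.3 and ZK1240.2 again came first, at 22.2 and 19.2 TPM, before enri-1 at 13.8 and F43C11.7 at 12.5. F43C11.4, at 5.19 TPM, then came before F43C11.6 at 4.87 and ZK1240.11 at 4.46, and F43C11.8, at 0.844 TPM, before ZK1240.8 at 0.540 and ZK1240.1 at 0.469. Samples overlapped in wild type between ZK1240.3 and ZK1240.2, ZK1240.2 and enri-1, enri-1 and F43C11.7, F43C11.6 and ZK1240.11, and ZK1240.8 and ZK1240.1, so the ranges of these neighbours in the order were not separate. Within each wild-type sample, ZK1240.2 was nonetheless above enri-1, enri-1 above F43C11.7 and ZK1240.8 above ZK1240.1, whereas ZK1240.3 was above ZK1240.2, and F43C11.6 above ZK1240.11, in 2 of 3 samples. In the mutants the overlaps were those of ZK1240.3 with ZK1240.2, enri-1 with F43C11.7, F43C11.4 with F43C11.6 and ZK1240.8 with ZK1240.1, while ZK1240.2 lay apart from enri-1.

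Wild-type replicate 2 was the highest wild-type sample in 8 of the 10 genes, against 43.3% of all tested genes. The 2 exceptions were F43C11.8 and F43C11.4, in which replicate 1 was the highest. Relative to the mean of replicates 1 and 3, replicate 2 was 1.05-fold for F43C11.7, 1.25-fold for ZK1240.3, 1.40-fold for enri-1 and 1.77-fold for ZK1240.1, but 0.273-fold for F43C11.4. Without replicate 2 the log2 fold change of enri-1 was 1.82 in place of 1.64 and that of ZK1240.2 was 1.79 in place of 1.56. All 10 genes were higher in the mutants whichever sample was left out. ZK1240.1 alone did not always pass, and its log2 fold changes of 1.59 to 2.11 with single samples left out had adjusted p = 0.00625 to 0.110.

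**Figure D2:**
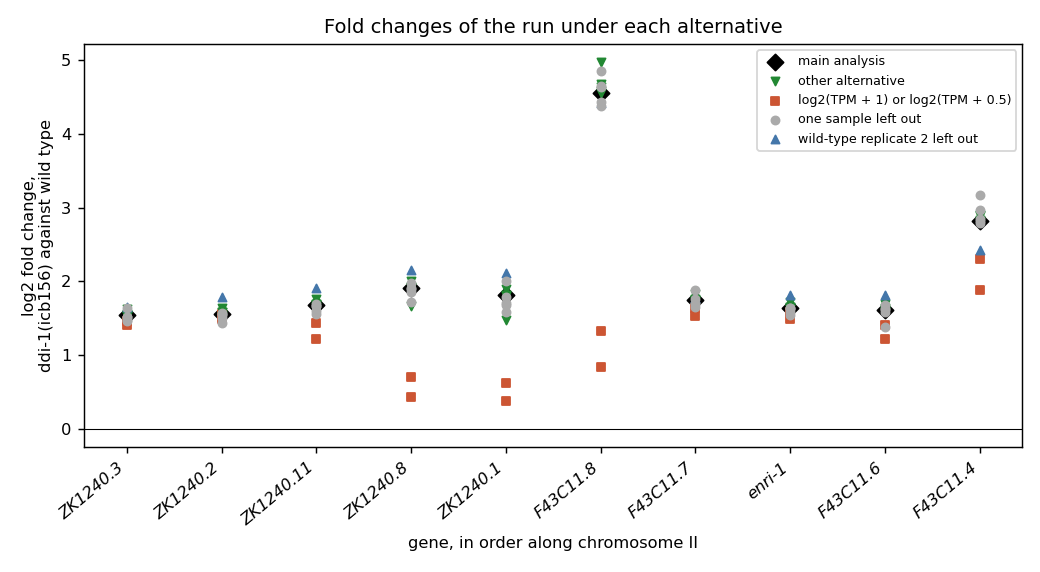
Log2 fold change of each of the 10 genes in the main analysis (black diamonds) and under each alternative (coloured marks), with genes in order along chromosome II and the horizontal line at 0. All values lie above 0, and the values on log2(TPM + 1) and log2(TPM + 0.5) are the lowest for F43C11.8, ZK1240.8 and ZK1240.1, the genes of fewest counts.

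The estimated counts allowed a check of which genes share reads, because a gene whose reads match it alone has a whole number. The sum over the transcripts of a gene was whole, within 0.01, in all 6 samples for 7 of the 10 genes and for 83.7% of all genes in the files. The 3 others were ZK1240.3, ZK1240.2 and ZK1240.11. The counts of ZK1240.3 became whole in all 6 samples when added to those of ZK1240.9, the gene 199 bases before it, and the counts of ZK1240.2 when added to those of ZK1240.11. Reads in these 4 genes were thus divided between neighbours, whereas enri-1, the other F43C11 genes, ZK1240.8 and ZK1240.1 had whole counts of their own. ZK1240.11 is held in the files as transcripts of 1965 and 1846 bases, longer than the 1029 bases of the gene in the annotation, where its transcript has 581 bases. Its level in TPM, and so its place in the order per length, rests on the longer transcripts.

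Added together, ZK1240.9 and ZK1240.3 had 531, 592 and 493 counts in the wild-type samples (replicates 1 to 3) against 1144, 1424 and 1107 counts in the mutants. Summed, they changed by 1.48 ± 0.11 (SE) on the log2 scale. ZK1240.2 and ZK1240.11 had 396, 510 and 319 counts together in wild type and 892, 1162 and 969 in the mutants (log2 fold change 1.59 ± 0.18, SE). Counted alone, ZK1240.3, ZK1240.2 and ZK1240.11 had 1.54, 1.56 and 1.68. These sums were added after the data were seen.

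For enri-1 the files hold F43C11.9.1 and F43C11.9.2, transcripts of 1209 and 1210 bases. Their lengths differ by 1 base, and whether reads can tell the transcripts apart was not tested, so the shares below are estimates only. F43C11.9.1 took 78.4% of the counts in wild-type replicate 2, 78.8% in ddi-1(icb156) replicate 1 and 78.4% in ddi-1(icb156) replicate 3. In wild-type replicates 1 and 3 and ddi-1(icb156) replicate 2 it took 0.261%, 0.137% and 0.248%. The division between these transcripts thus followed neither group, and the sum, with 203, 255 and 185 counts in wild type and 488, 622 and 529 in the mutants, did. For ZK1240.3 the transcript ZK1240.3a.1 took 80.7% to 96.6% of the counts in wild type and 89.3% to 92.6% in the mutants, and the groups overlapped.

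**Figure D3:**
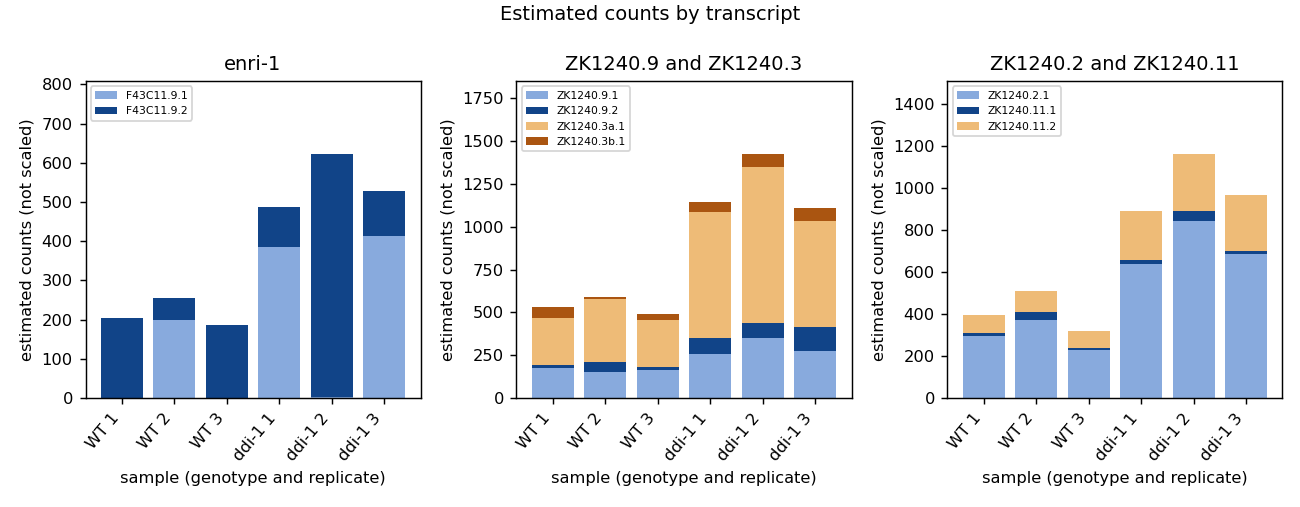
Estimated counts by transcript (stacked bars, not scaled for library size) in the 3 wild-type (WT) and 3 ddi-1(icb156) samples, for enri-1, for ZK1240.9 with ZK1240.3 and for ZK1240.2 with ZK1240.11. The totals are higher in the mutants in each panel, and F43C11.9.1 carries most of enri-1 in 1 wild-type and 2 mutant samples only.

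The run had no sharp edge on its left. ZK1240.9 and ZK1240.5, the nearest tested genes there, also passed as higher. Reads of ZK1240.9 were divided with ZK1240.3, so its value is not independent of that gene's, whereas ZK1240.5 had whole counts of its own. ZK1240.9, just outside, had 4.18, 5.21 and 4.53 CPM in wild type and 11.72, 11.35 and 12.51 CPM in the mutants (log2 fold change 1.35 ± 0.13, SE) beside 1.54 for ZK1240.3, just inside. ZK1240.5 had 1.31, 1.33 and 1.32 CPM in wild type and 3.12, 2.91 and 2.25 CPM in the mutants (log2 fold change 1.06 ± 0.20, SE). Of the 10 nearest tested genes on this side, 3 were higher and 7 did not pass. The third higher gene was B0281.6, at 0.182 ± 0.0337 and 0.651 ± 0.173 CPM (SD, n = 3 each, log2 fold change 1.81 ± 0.35, SE). With 10, 7 and 6 counts in the wild-type samples, B0281.6 passed the filter on low counts only through the mutants. Between B0281.6 and ZK1240.5, B0281.3 (log2 fold change 0.51 ± 0.16, SE) did not pass, though its groups did not overlap, and it passed without wild-type replicate 2 (0.66, adjusted p = 0.00224). The 6 K09F6 genes on this side, K09F6.6, K09F6.7, K09F6.9, K09F6.10, K09F6.11 and K09F6.13, had log2 fold changes from -0.22 to 0.61, and none passed by edgeR's test or DESeq2's. Of these 6 only K09F6.13 had an unadjusted p below 0.05 (0.0232).

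The end of the run was chosen on the values of the flanking genes too, and ZK1240.9, which passed, was left outside. On the right the nearest tested gene was F43C11.3, which did not pass. It had 0.438, 1.58 and 0.432 CPM in the wild-type samples (replicates 1 to 3) against 1.61, 2.32 and 1.73 CPM in the mutants (log2 fold change 1.21 ± 0.54, SE, adjusted p = 0.141) beside 2.82 for F43C11.4, just inside. The groups did not overlap, with wild-type replicate 2 just under the lowest mutant sample, and without this sample the log2 fold change was 2.11 (adjusted p = 0.000410). The next tested gene, F16G10.5, had 2.42 ± 1.02 CPM in wild type and 1.99 ± 0.560 CPM in the mutants (SD, n = 3 each). Between F43C11.3 and F16G10.5 lay genes of at most 11 counts over all samples that could not be tested, F43C11.2, F43C11.1, F43C11.16, F43C11.11 and F43C11.12.

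A second series of higher genes began at hpo-25, 19.1 kb past the end of the run. hpo-25, named for a screen for animals hypersensitive to a pore-forming toxin, had 1.99, 0.827 and 0.814 CPM in the wild-type samples (replicates 1 to 3) against 22.4, 22.1 and 19.1 CPM in the mutants (log2 fold change 4.11 ± 0.35, SE). F16G10.3 had 1, 0 and 1 counts in wild type and 19, 30 and 21 in the mutants, a ratio per library size of 45.6 with a 95% counting interval from 12.2 to 384. F16G10.9, F16G10.11 and F16G10.13 had log2 fold changes of 2.25, 3.11 and 2.81 (standard errors 0.27, 0.44 and 0.31), and each had its lowest wild-type sample in replicate 2. fbxa-182, an F-box gene, had 2.74, 2.51 and 2.42 CPM in wild type and 44.7, 48.7 and 48.2 CPM in the mutants (log2 fold change 4.21 ± 0.08, SE). Of the 10 nearest tested genes on the right, these 6 were higher and 4 did not pass, F43C11.3, F16G10.5, F16G10.8 and F16G10.14. Of the higher genes, F16G10.3 and F16G10.13 (14, 8 and 11 counts in wild-type replicates 1 to 3) needed mutant samples to pass the filter on low counts. The log2 fold changes of hpo-25 and fbxa-182 were above those of 9 of the 10 genes of the run and within 1 SE of that of F43C11.8. On log2(TPM + 1) they were 3.76 and 3.42, against 0.83 for F43C11.8.

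**Figure D4:**
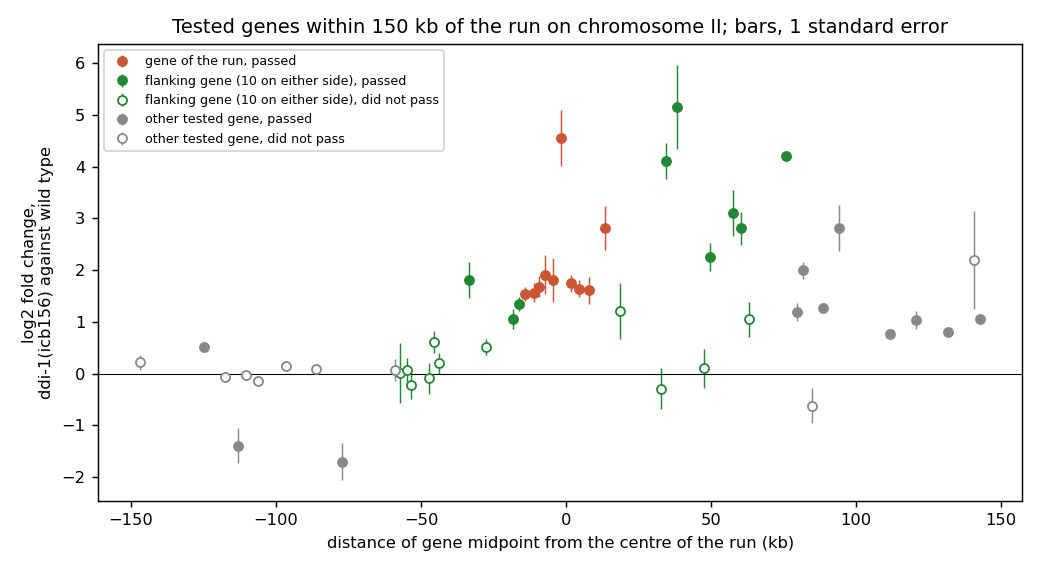
Log2 fold change (vertical axis, bars of 1 standard error) of the tested genes within 150 kb of the centre of the run on chromosome II, against the distance of the gene's midpoint from that centre in kb. Filled marks passed the test. The 10 genes of the run (orange) lie between ZK1240.9 on the left and F43C11.3 on the right, and 14 of 20 tested genes to the right passed as higher, against 4 of 20 to the left.

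Within 150 kb of the centre of the run, 40 other genes could be tested, and their median log2 fold change was 0.69. The test was passed by 18 as higher and by 2 as lower. To the left 4 of 20 were higher and 2 were lower, and to the right 14 of 20 were higher, beside 9.96% higher and 13.4% lower over all tested genes. Some of these higher genes, among them F16G10.3, F16G10.13 and B0281.6, could be tested only with the mutants' counts, so the shares are a description. Over the whole of chromosome II, 275 of 2620 tested genes were higher (10.5%), or 265 of 2610 (10.2%) with the 10 genes left out. Without wild-type replicate 2, 501 of 2664 tested genes of chromosome II were higher, beside 3087 of 15643 over all tested genes. With all 6 samples the other chromosomes had from 6.83% higher, on chromosome I, to 14.3%, on chromosome V. The share on chromosome II was thus near that of all genes, and the part of the reporter in these values was not tested.

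Inside the run a single gene that the files hold could not be tested. ZK1240.6, on the minus strand between ZK1240.3 and ZK1240.2, had 1, 0 and 1 counts in wild type and 3, 6 and 2 in the mutants. To the left trim-21, whose name places it with tripartite motif proteins, had 2 counts over wild type and 1 over the mutants. Over the flanking stretch from 2276742 to 2412749, the 17 annotated genes that the files hold and that could not be tested had at most 18 counts over all 6 samples.

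None of the 10 genes of the run is on the 4 published lists that the study set beside its own, of genes induced in the oomycete recognition response (ORR), by the proteasome inhibitor bortezomib (BTZ), in skn-1a(mg570) mutants or in the intracellular pathogen response (IPR). Of the 20 flanking genes 3 are listed. fbxa-182 is on the BTZ, skn-1a and IPR lists, and K09F6.7 and K09F6.10, which did not pass, are on the BTZ list. Of the other genes of the stretch, which were not tested, trim-21 is on the ORR and BTZ lists, and B0281.1 and the pseudogenes B0281.7 and ZK1240.4 are on the BTZ list. So is enri-2, which lies on chromosome X.

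None of the tested genes on a chosen list from the small RNA pathways around enri-1 passed as higher in edgeR's test over all 6 samples. The list does not cover every gene of these pathways. Of 20 genes listed, 19 were in the files and 18 could be tested, of which 3 were lower, 15 did not pass and 0 were higher by edgeR's test. DESeq2 called 6 of the 18 lower and 0 higher, beside 2835 lower and 1919 higher of 15409 over all tested genes. At an unadjusted p below 0.05 in edgeR's test, 8 were lower and 1 was higher. Over all 15409 tested genes, 3508 were lower and 2955 higher at that threshold. The 3 lower genes are 16.7% of those tested, beside 13.4% over all tested genes, and the median log2 fold change was -0.19 beside 0.01. ergo-1, which encodes an Argonaute of endogenous small RNAs, had 79.4, 81.4 and 82.6 CPM in the wild-type samples (replicates 1 to 3) against 55.0, 56.9 and 68.5 CPM in the mutants (log2 fold change -0.43 ± 0.09, SE, adjusted p = 0.0247). mut-16, whose protein is the scaffold of the foci that amplify small RNAs, was lower too (-0.56 ± 0.14, SE, adjusted p = 0.0347), as was dcr-1, which encodes Dicer (-0.32 ± 0.08, SE, adjusted p = 0.0364). Without wild-type replicate 2, 7 genes of the list were lower and 1 was higher, beside 3474 lower and 3087 higher of 15643 over all tested genes. Without wild-type replicate 1 or 3 only 1 was lower. Without mutant replicate 1 or 2 the count of lower genes was 0, with 1 higher gene without mutant replicate 1. Over all tested genes, 918 and 816 were lower without wild-type replicates 1 and 3, and 810 and 771 without mutant replicates 1 and 2. Without mutant replicate 1, 982 were higher. These settings tested 15550 to 15697 genes. nrde-3, whose protein ENRI-1 binds, did not pass (log2 fold change 0.37 ± 0.23, SE, adjusted p = 0.266). The range over the 18 genes was -0.58 to 0.37, against 1.64 for enri-1.

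enri-2, a gene of the same family as enri-1 on chromosome X, could not be tested. It had 12, 3 and 16 counts in the wild-type samples (replicates 1 to 3) against 3, 0 and 0 in the mutants. The 6 germline markers summed to 1733 to 2291 CPM in wild type and 1376 to 1683 CPM in the mutants, and 2 of these were lower. Of 12 oocyte and eggshell genes, 11 were lower, with sums of 464 to 1031 CPM in wild type and 262 to 337 CPM in the mutants. Of 4 neuronal genes 2 were higher, with sums of 237 to 296 CPM in wild type and 316 to 363 CPM in the mutants that did not overlap. Of the intestinal and the pharyngeal genes 1 each was higher, and of the body wall muscle genes 1 was lower, with sums that overlapped between the groups. The sums of the 3 epidermal genes overlapped as well. Among the wild-type samples, replicate 2 had the lowest sums of yolk, germline, and oocyte and eggshell genes. It had the highest sums of intestinal, epidermal, pharyngeal and neuronal genes. The part of these lists in the values of the 10 genes and of the small RNA genes was not tested.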

How the data were processed

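Per the labels and methods, the authors ran kallisto on every library with the WormBase WS283 transcriptome as its index, and compared groups by Sleuth (no versions are stated). The deposited tables give estimated counts, not normalized (TPM were computed here), and transcript lengths, for 37058 transcripts in each of 6 samples. Whether libraries keep strand is not stated, so genes with overlapping exons are uncertain. Here transcripts were joined to genes of Ensembl release 115 (WBcel235), 30413 by transcript ID and 6633 by sequence name, and 12 had no match. Estimated counts were summed per gene, rounded and scaled by TMM. The test of edgeR 4.0.16 (R 4.3.3), with filterByExpr and a robust quasi-likelihood fit, was two-sided and without covariates, and p was adjusted by the Benjamini-Hochberg method over 15409 genes. Alternatives used DESeq2 1.42.0, limma 3.58.1 on log2(TPM + 1) or log2(TPM + 0.5), other filters and scaling, thinned counts, a replicate block and left-out samples. The tests were checked on simulated data, with changes placed only in more abundant genes and less spread between samples than here. That check does not cover the genes of fewest counts.

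Deviations of same-numbered samples from their group means had r = 0.114, 0.309 and 0.185 over all tested genes. Different-numbered samples had r from -0.289 to 0.114. The highest was wild-type replicate 1 with mutant replicate 3, as high as the same-numbered replicates 1. Whether the replicate numbers pair the samples is therefore uncertain. The main test did not pair them, and only the replicate block did. Named are the 10 genes, the 10 nearest tested genes on either side, the genes inside the run and up to 3 called genes of the small RNA list in each direction. nrde-3, enri-2, trim-21 and the untested genes beside F43C11.3 were added after their values were seen. The genes and lists were chosen with earlier results of these data known. Totals of 28962104 to 47142002 counts leave genes of few counts imprecise, and counting intervals cover counting error only. Protein and promoter comparisons that had been planned were not run.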

Additional observations from a re-analysis of the deposited data

How the results depend on the processing

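Over all combinations of the 10 genes with the alternatives that tested them, 134 fold changes kept direction and call. The 134 include the sums of ZK1240.3 with ZK1240.9 and of ZK1240.11 with ZK1240.2, which were added after the data were seen. A further 5 kept direction alone, all of ZK1240.1. This gene did not pass with thinned counts (1.48, adjusted p = 0.0586) or without wild-type replicates 1 or 3 or mutant replicates 1 or 2. The stricter filter, of 50 counts in every sample of a group, left 7 of the 10 genes, all higher. With the replicate block, in which same-numbered samples were paired, 1405 genes were higher and 2198 lower, all 10 genes were higher and no call of a flanking gene changed.

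Over all tested genes 42.6% of the calls were higher, against 53.2% with library-size scaling, 53.0% and 52.1% on log2(TPM + 1) and log2(TPM + 0.5) and 40.4% by DESeq2. Library-size scaling moved the median log2 fold change to 0.09. With single samples left out, 931 to 3087 genes were higher and 771 to 3474 lower, the most without wild-type replicate 2. On chromosome II they were 185 to 501 and 145 to 647, and in the small RNA list 0 to 1 and 0 to 7. In that list 1 gene was higher with library-size scaling, 6 were lower by DESeq2 and 1 was lower on log2(TPM + 1) and on log2(TPM + 0.5). Over all 15409 tested genes, 1917 were higher with library-size scaling and 2835 lower by DESeq2. On log2(TPM + 1) and log2(TPM + 0.5), 1456 and 1502 were lower.

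Of the 11 flanking genes that did not pass, 6 changed sign under some alternative. K09F6.6 was at -0.0233 by DESeq2, -0.0058 on log2(TPM + 1), -0.0213 on log2(TPM + 0.5), -0.0731 with the replicate block and -0.20 with thinned counts. Thinned counts gave 0.026 for K09F6.10 and -0.0847 for F16G10.8. With single samples left out the ranges were -0.75 to 0.39 for K09F6.6, -0.0856 to 0.14 for K09F6.11, -0.35 to 0.0342 for K09F6.9, -0.27 to 0.16 for K09F6.10, -0.59 to 0.0187 for F16G10.5 and -0.18 to 0.33 for F16G10.8. B0281.3 passed by DESeq2 (0.49, adjusted p = 0.0287). The cause of these changes was not tested. Relatives of the 10 genes by protein sequence, and alternatives for them, were not run.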
